A study of Mus musculus with 4 samples.

Results

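Polycomb repressive complex 1 (PRC1) was followed through 9 of its genes, Bmi1, Pcgf2, Ring1, Rnf2, Phc1, Phc2, Cbx2, Cbx7 and Cbx8, in 2 sorted fractions of mouse oral tumour cells. The members were the rows of the deposited table that carry these symbols, 9 of 37574 genes. All 9 were among the 16219 genes the authors tested. The tumours arose in C57BL/6 mice carrying Bmi1CreER, a Cre recombinase activated by tamoxifen, and a tdTomato reporter, after 26 weeks of 4NQO, a carcinogen that forms DNA adducts. They were taken 24 hours after tamoxifen, digested with collagenase and dispase, and sorted for the epithelial surface protein EpCAM into Tomato-positive and Tomato-negative cells. The reporter marks cells in which this Cre was active after tamoxifen, and a cell without recombination stays unmarked whether or not it holds Bmi1 transcripts. Both fractions came from carcinogen-treated, tamoxifen-treated tumours of the same genotype, and differed, as far as the labels say, in the reporter. Each fraction was sequenced as 2 samples, 4 in all, but nothing in the labels tells whether these were separate animals; the p-values may then measure technical spread only.

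Levels are given as FPKM, which divides the fragments of a gene by its transcript length and by the size of the library. The table has 1 such value per gene and fraction, joining its 2 samples, so no level has an SD and sequencing depth is unknown. A gene was counted as called when its q-value in the authors' deposited table was below 0.05, and all differences are Tomato-positive relative to Tomato-negative cells. In a bulk sample, fewer cells that express a gene and less of its RNA per cell cannot be told apart.

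PRC1 is a histone H2A ubiquitin ligase that helps keep developmental and cell cycle inhibitor genes silent. Its catalytic core pairs a RING protein, Ring1 or Rnf2, with a PCGF protein. In canonical PRC1 that partner is Bmi1 or Pcgf2, and the core is joined by a CBX protein, which reads the histone H3 methyl mark placed by Polycomb repressive complex 2, and by a PHC protein, which lets complexes cluster. Other PCGF proteins form variant complexes that contain Rybp or Yaf2 in place of a CBX protein. Bmi1 is known for repressing the Cdkn2a locus and for supporting self-renewal in several epithelia and in head and neck squamous tumours.

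The 9 members did not move in a single direction. Bmi1, the RING gene Rnf2 and the PHC gene Phc2 rose in Tomato-positive cells, the chromobox genes Cbx2, Cbx7 and Cbx8 fell, and Pcgf2, Ring1 and Phc1 did not pass the test. Of all tested genes 27.2% were called, 13.0% higher and 14.2% lower, beside 6 of 9 members called, 3 in each direction. Bmi1 is among the 3 called higher, and the fractions were sorted on a reporter switched on from it. The members were also chosen with earlier results of these data known, so these counts describe the members and test nothing. At the stricter threshold of q below 0.01 there were 3 members, Bmi1 and Phc2 higher and Cbx7 lower, beside 19.4% of all tested genes, 9.17% higher and 10.3% lower. The median log2 difference was -0.08 over the members and 0.02 over all tested genes. Since rises and falls cancel in it, the member median says little about any 1 gene.

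**Figure D1:**
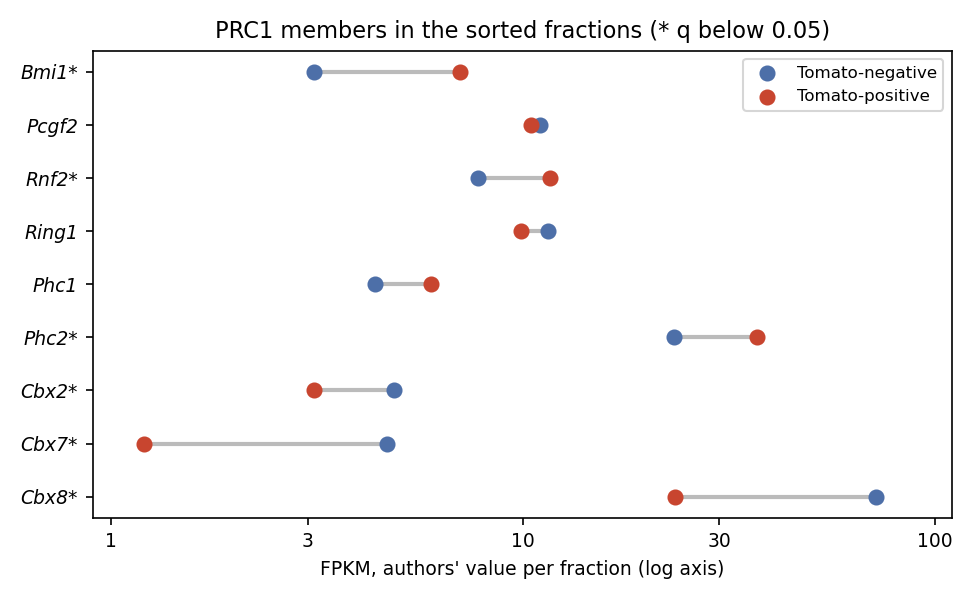
FPKM of the 9 PRC1 members on a log axis, with 1 point for the Tomato-negative fraction and 1 for the Tomato-positive fraction; each point is the authors' group value, so no error bar exists, and a star marks q below 0.05. Bmi1, Rnf2 and Phc2 lie to the right in Tomato-positive cells and the 3 Cbx genes to the left, with Cbx7 farthest apart at 4.67 and 1.20 FPKM.

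Markers of other cell types moved with these differences, although both fractions were sorted for EpCAM. Squamous epithelial markers were present in both fractions, and 4 of 5 rose, Epcam, Krt5, Krt14 and Trp63. Skeletal muscle markers fell in 7 of 8, with a summed level of 1589 FPKM in Tomato-negative cells against 119 FPKM in Tomato-positive cells. Fibroblast and pericyte markers fell in 8 of 8 (571 and 96.2 FPKM summed), gland markers in 5 of 6 with Krt18 higher (197 and 21.0 FPKM), and macrophage markers in 6 of 7 (361 and 106 FPKM). Neutrophil markers rose in 6 of 6 tested (1409 and 10938 FPKM summed), of which S100a8 and S100a9 are also keratinocyte genes. Nearly all of that sum came from S100a8 (520 and 6383 FPKM) and S100a9 (882 and 4506 FPKM). By fold, Csf3r (0.637 and 17.1 FPKM, 26.8-fold) and Retnlg (0.856 and 19.2 FPKM, 22.4-fold) rose more than S100a8 (12.3-fold). Both stood below 1 FPKM in Tomato-negative cells. Cxcr2 and Mmp9 were also called higher, with smaller folds than S100a8. The neutrophil marker Ly6g, at 0.636 and 0.302 FPKM, was not tested. Lymphocyte markers fell in 1 of 4 tested (21.3 and 10.01 FPKM), and endothelial markers rose in 3 of 6 and fell in 1 (28.6 and 32.4 FPKM). All these marker counts stand beside 13.0% of all tested genes called higher and 14.2% called lower. For the lymphocyte list, 1 gene of 4 says little. No tested marker stood at 0 in either fraction. The part of these cells in the levels of the PRC1 members was not tested.

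RefSeq promoter windows were matched for 8 of the 9 members, and those of Bmi1, Rnf2, Cbx7 and Cbx8 are shown because these genes include the largest rise, the largest falls and the called RING gene. Bmi1 is also the gene the labels name for the Cre that marked the cells. Each runs from 250 bases before to 50 bases after the RefSeq transcript start, 5′ to 3′ on the gene's strand, on build GRCm38.p6. Capitals mark matches, on either strand, to the E-box CACGTG, the E2F site GCGGGAA, the GC box GGGCGG, the CCAAT box CCAAT or the TATA box TATAAA. The windows are chr2:18676768-18677067 on the plus strand for Bmi1, chr1:151500942-151501241 on the minus strand for Rnf2, chr15:79932597-79932896 on the minus strand for Cbx7 and chr11:119040864-119041163 on the minus strand for Cbx8.
Bmi1: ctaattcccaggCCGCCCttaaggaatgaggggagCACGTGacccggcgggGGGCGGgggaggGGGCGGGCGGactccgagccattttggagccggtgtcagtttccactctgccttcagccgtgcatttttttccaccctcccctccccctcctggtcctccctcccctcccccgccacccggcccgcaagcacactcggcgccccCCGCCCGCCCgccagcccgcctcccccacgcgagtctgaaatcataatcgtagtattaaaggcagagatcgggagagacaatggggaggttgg
Rnf2: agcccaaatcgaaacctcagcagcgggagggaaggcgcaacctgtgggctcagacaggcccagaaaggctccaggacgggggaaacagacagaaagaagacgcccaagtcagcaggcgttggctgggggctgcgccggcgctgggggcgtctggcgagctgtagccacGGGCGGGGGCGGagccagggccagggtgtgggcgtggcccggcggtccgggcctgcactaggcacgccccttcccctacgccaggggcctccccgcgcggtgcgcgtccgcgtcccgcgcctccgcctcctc
Cbx7: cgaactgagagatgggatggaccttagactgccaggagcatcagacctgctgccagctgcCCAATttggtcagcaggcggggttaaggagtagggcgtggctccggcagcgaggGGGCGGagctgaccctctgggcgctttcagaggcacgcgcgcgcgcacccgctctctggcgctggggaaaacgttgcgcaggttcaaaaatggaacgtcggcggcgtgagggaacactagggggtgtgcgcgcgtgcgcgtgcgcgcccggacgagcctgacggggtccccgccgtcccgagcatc
Cbx8: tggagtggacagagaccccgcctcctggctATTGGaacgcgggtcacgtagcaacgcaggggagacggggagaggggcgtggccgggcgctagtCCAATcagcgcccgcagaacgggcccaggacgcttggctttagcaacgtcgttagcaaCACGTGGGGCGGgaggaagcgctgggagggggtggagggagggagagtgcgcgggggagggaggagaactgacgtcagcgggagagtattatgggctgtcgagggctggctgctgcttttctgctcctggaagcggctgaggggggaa

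The 4 windows are rich in G and C, at 66.3% for Bmi1, 72.7% for Rnf2, 67.3% for Cbx7 and 66.0% for Cbx8. The Bmi1 window holds 1 E-box, the motif bound by Myc and Max dimers, and 6 overlapping or separate GC boxes, the motif of Sp factors. The Cbx8 window also holds 1 E-box, which directly abuts a GC box, and 2 CCAAT boxes, while the Cbx7 window holds 1 GC box and 1 CCAAT box and the Rnf2 window 2 GC boxes. Among all 32851 promoter windows of this length 7.15% hold the E-box, 35.7% the GC box and 37.4% the CCAAT box, and among the 9690 windows with at least 60% G and C the shares are 10.8%, 80.6% and 31.6%. None of the 10 windows of the 8 members holds the E2F or TATA letters, which stand in 4.60% and 13.6% of all windows and in 10.2% and 3.21% of those rich in G and C. E-box letters stand in the windows of Bmi1, Cbx8 and Pcgf2 and in 1 of the 3 windows of Phc2, genes that rose, fell and did not pass.

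Of the PCGF genes Bmi1 was the only one called higher, as were 13.0% of all tested genes. The level of Bmi1 (chromosome 2, 18598644 to 18608256, mm9) was 3.11 FPKM in Tomato-negative cells against 7.03 FPKM in Tomato-positive cells, a 2.26-fold difference (q = 0.00109, from the authors' deposited table). Because the fractions were sorted on a reporter switched on from Bmi1, this difference is not independent of the sort. Its direction is that of the label, but 1 gene among many called higher does not establish the label. Bmi1 was present in the unmarked fraction too, where it was the lowest of the 9 members. Its closest relative Pcgf2 (chromosome 11, 97550136 to 97561811), which can take the same place in canonical PRC1, was listed at 11.0 and 10.4 FPKM (q = 0.902, from the authors' deposited table). Per transcript length, Bmi1 thus stood at 0.283 of the Pcgf2 level in Tomato-negative cells against 0.674 of it in Tomato-positive cells. Commd3, which ends 786 bases before Bmi1, was listed at 102 and 120 FPKM without passing (q = 0.523, from the authors' deposited table).

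Of the PCGF genes of variant complexes 1 fell and 3 did not pass, beside 14.2% of all tested genes called lower and 27.2% called in either direction. A count over so few genes says little. Pcgf5, a subunit of variant PRC1, fell from 9.07 to 3.89 FPKM (q = 0.000405, from the authors' deposited table). That is the lowest q the table holds, and 2004 genes share the p-value behind it. Pcgf1, the partner of Kdm2b and Bcor, was listed at 12.1 and 7.86 FPKM, Pcgf3 at 11.7 and 13.5 FPKM and Pcgf6 at 7.89 and 9.42 FPKM, none past the test. Summed over the 6 PCGF genes the level was nearly even, at 54.8 FPKM in Tomato-negative cells against 52.2 FPKM in Tomato-positive cells, with no test of the sum. Within that sum the share of Bmi1 was 5.67% and 13.5%, and that of Pcgf5 was 16.5% and 7.46%. Pcgf2 kept a share of 20.1% and 20.0%.

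Between the RING genes, which encode the catalytic subunits, Rnf2 rose and Ring1 did not pass. Rnf2 (chromosome 1, 153316535 to 153347953), the RING gene needed for early mouse development, increased from 7.76 to 11.6 FPKM, a log2 difference of 0.58 (q = 0.0180, from the authors' deposited table). The rise was 1.495-fold, just short of a minimum fold of 1.5. Ring1 (chromosome 17, 34157736 to 34161625) was listed at 11.5 and 9.88 FPKM (q = 0.702, from the authors' deposited table). Rnf2 stood at 40.3% of the summed RING level in Tomato-negative cells and at 54.0% in Tomato-positive cells, so that the order of the 2 genes turned around. The difference between their changes was not tested.

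The Polyhomeotic genes, whose proteins join PRC1 particles through a SAM domain, were led in level by Phc2. Phc2 (chromosome 4, 128331981 to 128430125) rose from 23.2 to 37.0 FPKM, a log2 difference of 0.67 (q = 0.00954, from the authors' deposited table). It made up 70.4% of the summed PHC level in Tomato-negative cells against 79.0% in Tomato-positive cells. Phc1 (chromosome 6, 122267748 to 122290579) was listed at 4.36 and 5.96 FPKM, q = 0.452 in the authors' deposited table, and Phc3 at 5.42 and 3.89 FPKM, q = 0.276. Scmh1, a further SAM domain protein of PRC1, was listed at 21.1 and 32.9 FPKM, a log2 difference of 0.64 close to that of Phc2, but missed the threshold (q = 0.107, from the authors' deposited table).

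The chromobox members fell. Cbx8 (chromosome 11, 118897618 to 118902283), the most abundant member in Tomato-negative cells, decreased from 71.9 to 23.4 FPKM, 3.07-fold lower (q = 0.0201, from the authors' deposited table). Cbx7 (chromosome 15, 79722088 to 79801549), a chromobox protein known in mouse and human cells for repressing the Cdkn2a locus, decreased from 4.67 to 1.20 FPKM, 3.90-fold lower (q = 0.00550, from the authors' deposited table). Cbx2 (chromosome 11, 118884275 to 118892584), needed for male gonad development in the mouse, decreased from 4.86 to 3.11 FPKM, 1.56-fold lower. Its q of 0.0484 in the authors' deposited table was just inside the threshold. Cbx7 and the antiviral deaminase gene Apobec3 share 1 deposited locus, on opposite strands in the GENCODE annotation, and the strand setting of the counting is not given in the sources used here. Apobec3 was at 8.14 and 7.45 FPKM and did not pass.

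Cbx6, a further chromobox gene of PRC1, changed in the same direction. It fell from 8.71 to 5.12 FPKM (q = 0.0441, from the authors' deposited table), and its locus is shared with Nptxr and Npcd. Cbx2, Cbx6, Cbx7 and Cbx8 were thus all called lower, where 14.2% of all tested genes were, and the summed level of these 4 genes was 90.2 FPKM in Tomato-negative cells against 32.8 FPKM in Tomato-positive cells. Cbx8 held 79.8% and 71.3% of that sum, and the order of the 4 genes by level was the same in both fractions. Setting these 4 genes side by side was decided after their values were seen.

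These 4 genes lie in pairs on the mouse genome. Cbx2 and Cbx8 stand within 18 kb on chromosome 11 (118884275 to 118902283, mm9), and Cbx6 and Cbx7 within 185 kb on chromosome 15 (79616782 to 79801549, mm9). Of 9 tested genes within 150 kb of the Cbx7 locus, a window chosen after the table was seen, 3 fell and 1 rose, beside 14.2% and 13.0% of all tested genes. Besides Cbx6, the nuclear envelope gene Sun2 fell from 29.5 to 15.01 FPKM and the synaptic vesicle gene Syngr1 from 8.08 to 1.60 FPKM, and the growth factor gene Pdgfb rose from 3.50 to 12.4 FPKM. The same window around Pcgf2 held 11 tested genes, 3 called higher and 0 lower. Around Rnf2 it held 5, 2 higher and 0 lower, and around Phc2 5, 0 higher and 1 lower. Of the 2 around Bmi1 and the 2 around Phc1, 0 were called.

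The chromobox genes outside PRC1 were not called. Cbx1, Cbx3 and Cbx5 encode the HP1 proteins, which carry a related chromodomain but bind the H3 methyl mark of constitutive heterochromatin. They were listed at 16.9 and 21.5, at 18.1 and 21.3, and at 9.43 and 13.8 FPKM. Their log2 differences, between 0.23 and 0.55, were above 0, and 0 of 3 was called by Cuffdiff, nor was any at an unadjusted p below 0.05. Beside the 27.2% of all tested genes called by Cuffdiff, a count over 3 genes says little. Whether the HP1 genes and those 4 CBX genes differed from each other was not tested.

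**Figure D2:**
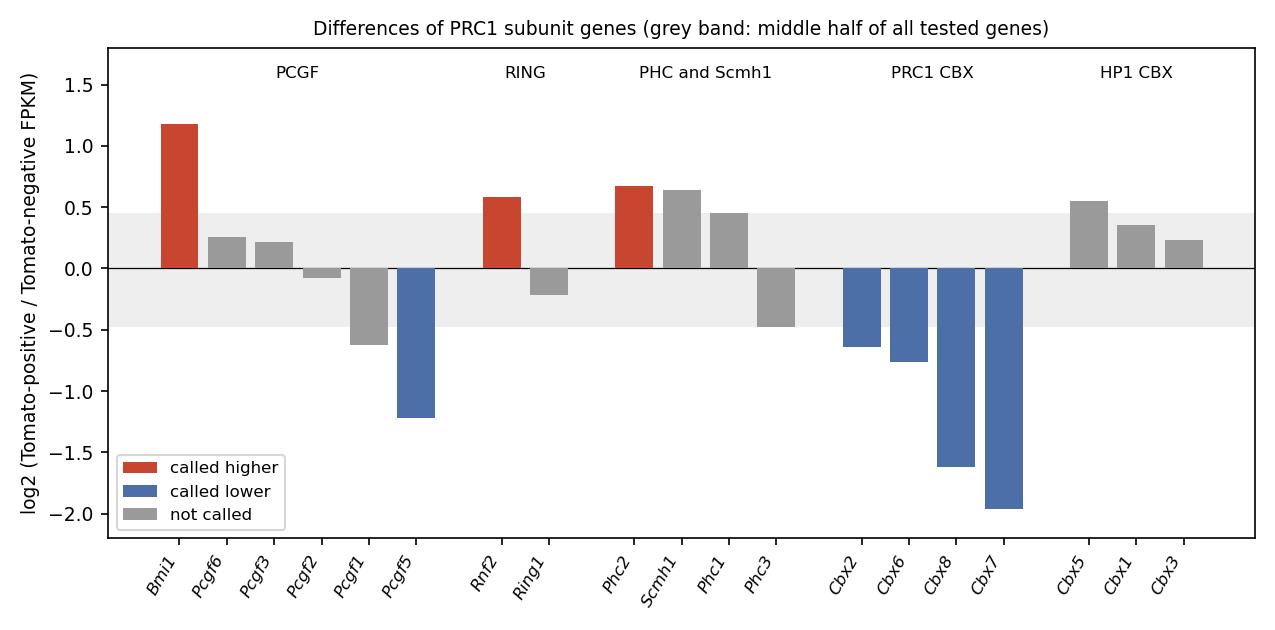
Log2 differences in FPKM (Tomato-positive over Tomato-negative) for tested PRC1 subunit genes and the 3 HP1 genes, grouped by protein family; red and blue bars are genes called higher and lower at q below 0.05, grey bars are not called, and the grey band spans the quartiles of all tested genes, -0.47 to 0.44. Bars have no error because the table has 1 value per fraction. The 4 CBX genes of PRC1 shown all lie below the band, from -0.64 to -1.96.

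Sums over subunit families went in different directions. The summed level of the 4 CBX genes was 2.75 times as high in Tomato-negative cells, whereas the PHC sum went from 33.0 to 46.9 FPKM and the RING sum from 19.3 to 21.5 FPKM. Cbx8 stood at 23.1 times the Bmi1 level in Tomato-negative cells and at 3.33 times in Tomato-positive cells. None of these sums and ratios carries an error or a test.

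**Figure D3:**
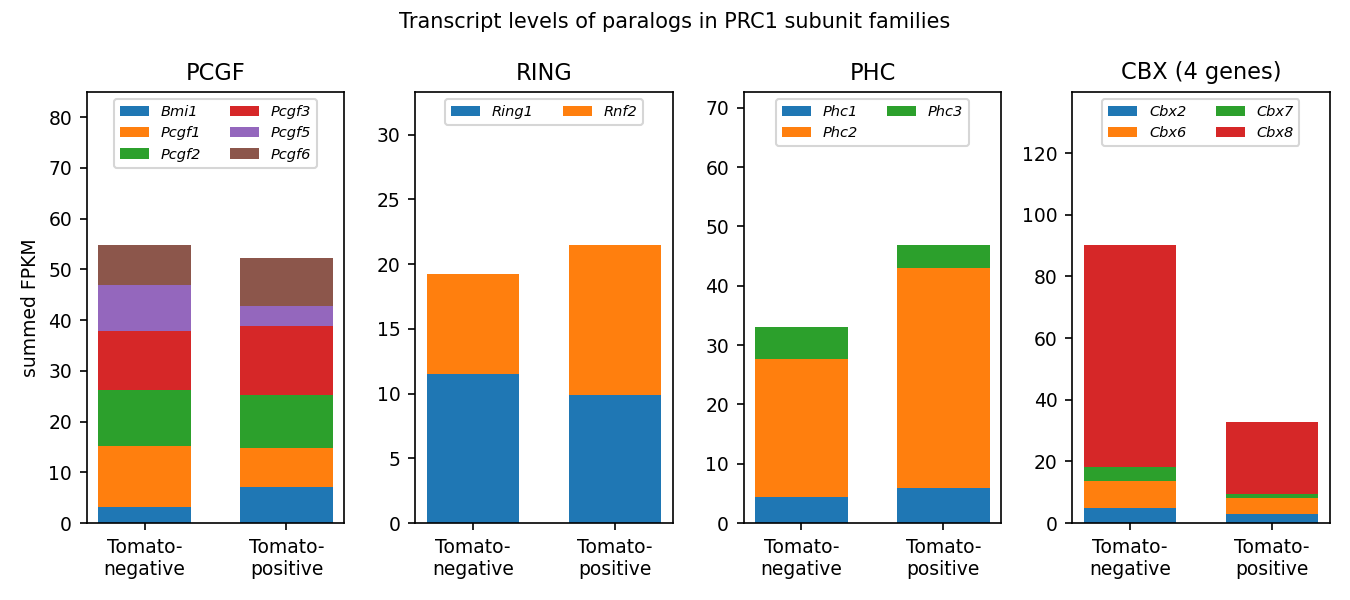
Summed FPKM of the paralogs in the PCGF, RING and PHC families and of 4 CBX genes, stacked by gene, in Tomato-negative and Tomato-positive cells; each panel has its own vertical axis starting at 0. The CBX stack is lower in Tomato-positive cells (32.8 against 90.2 FPKM), mostly through Cbx8, while the PCGF stack has a like height (52.2 against 54.8 FPKM) with a larger Bmi1 part.

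Further PRC1 genes were taken from lists. Of 8 other paralogs of PRC1 subunits 7 were tested, 2 fell, namely Pcgf5 and Cbx6, and 0 rose by Cuffdiff, with 1, Scmh1, higher at an unadjusted p below 0.05. Those 2 calls stand beside the 27.2% of all tested genes called, 14.2% lower. Their median log2 difference was -0.48. Scml2, at 0.695 and 0.365 FPKM, was not tested. Of 21 partners of variant PRC1 complexes 3 rose and 2 fell, 5 called in all beside the 27.2% of all tested genes, and their median was 0.07. Yaf2, which takes the place of a CBX protein in variant complexes, rose from 10.5 to 19.2 FPKM (q = 0.000405, from the authors' deposited table). Its relative Rybp was at 4.55 and 4.65 FPKM and did not pass.

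Bcorl1, a corepressor of the Pcgf1 complex, rose from 1.49 to 4.01 FPKM (q = 0.00172, from the authors' deposited table), and its paralog Bcor was listed at 3.99 and 3.36 FPKM without passing. Tfdp1, the dimer partner of E2F factors, rose from 20.3 to 29.4 FPKM (q = 0.0151, from the authors' deposited table). E2f6, the E2F factor of the Pcgf6 complex, was listed at 4.08 and 11.2 FPKM, a wider gap than that of Bmi1, yet missed the threshold (q = 0.340, from the authors' deposited table). The E-box binding protein Max fell from 79.0 to 52.1 FPKM (q = 0.0230, from the authors' deposited table), and the casein kinase subunit Csnk2b fell from 554 to 325 FPKM (q = 0.000758 there), at a locus it shares with 3 other genes. The CpG-island binding protein Kdm2b was listed at 20.2 and 12.8 FPKM without passing (q = 0.159, from the authors' deposited table).

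Enzymes that take ubiquitin off H2A, the reverse of the PRC1 reaction, were not called. Of 8 such genes and their cofactors 7 were tested, and 0 passed by Cuffdiff or at an unadjusted p below 0.05. Beside the 27.2% of all tested genes called by Cuffdiff, a count over 7 genes says little. Bap1 was listed at 9.85 and 12.0 FPKM, its cofactor Asxl1 at 4.65 and 5.59 FPKM and Usp16 at 78.0 and 69.8 FPKM. Among 11 subunits of Polycomb repressive complex 2, whose mark CBX proteins read, 3 rose and 1 fell, beside 13.0% and 14.2% of all tested genes, with a median log2 difference of 0.24. Jarid2 rose from 7.31 to 22.8, Suz12 from 14.2 to 23.8 and Aebp2 from 29.7 to 46.1 FPKM, Phf19 fell from 0.918 to 0.240 FPKM, and the methyltransferase gene Ezh2, at 11.1 and 11.7 FPKM, did not pass.

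**Figure D4:**
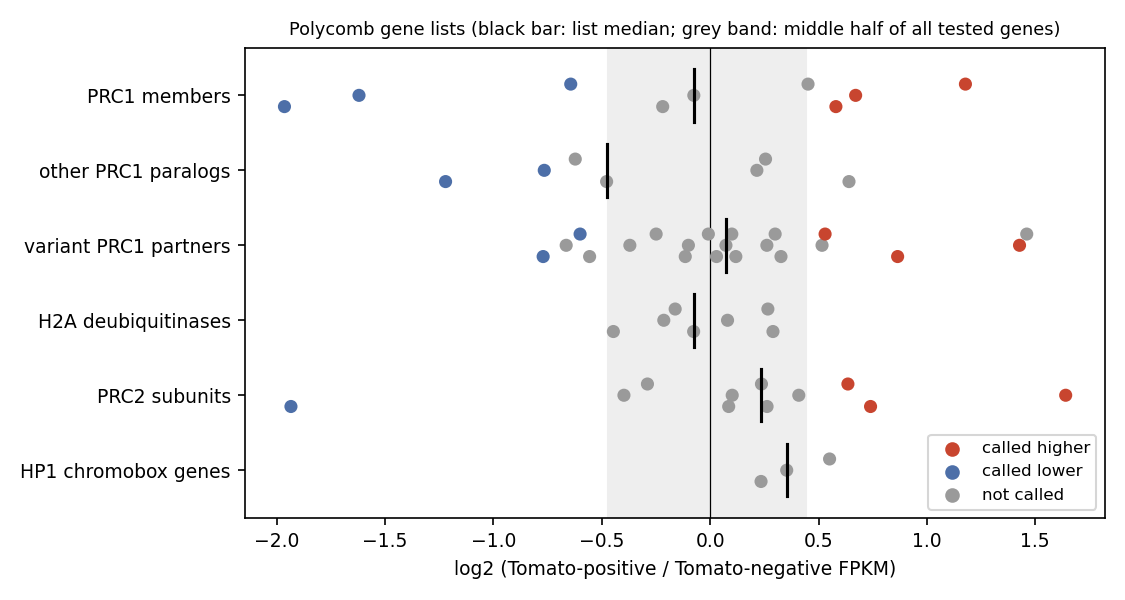
Log2 differences in FPKM (Tomato-positive over Tomato-negative) of each tested gene in 6 Polycomb-related lists; red and blue points are called higher and lower, grey points are not called, black bars are list medians and the grey band spans the quartiles of all tested genes. The PRC1 members spread from -1.96 to 1.18, and all 7 tested H2A deubiquitinase genes lie inside the band.

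Cdkn2a, the best known target of Bmi1 repression, was higher in the fraction with more Bmi1. It rose from 42.9 to 90.6 FPKM (q = 0.000405, from the authors' deposited table). The gene row joins the transcripts of the cell cycle inhibitor Ink4a and of Arf, which cannot be told apart there. The neighbouring inhibitor gene Cdkn2b was listed at 29.4 and 22.9 FPKM without passing (q = 0.193, from the authors' deposited table). Trp53, downstream of Arf, was listed at 18.7 and 25.3 FPKM with q = 0.113, and Cdkn1a at 211 and 173 FPKM (q = 0.249, from the authors' deposited table). Cbx7, also known for repressing the Cdkn2a locus, fell from 4.67 to 1.20 FPKM. Whether Bmi1, Cbx7 or the mix of cell types bears on the Cdkn2a level was not tested.

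The genes nearest to Bmi1 in both levels were Speg (3.07 and 7.07 FPKM), Sox18 (3.14 and 6.81 FPKM) and Plod2 (3.11 and 7.34 FPKM). Likeness was the distance between log2 FPKM values over the 2 fractions, and the 3 genes lay within 0.061 of Bmi1. With 2 values per gene this is a description only.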

How the data were processed

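RNA of 4 samples was sequenced, 2 per fraction. The labels' protocols name the RNeasy Micro kit for RNA and a KAPA kit for libraries. TopHat and Cuffdiff on mouse build mm9 are named in the submitters' processing notes; their versions, the annotation and the strand setting were not given in the sources used here. The authors deposited FPKM as 1 value per gene and fraction, and a p-value and q-value per gene, per the file headers. FPKM depends on all other genes in a library, and depth per sample is unknown.

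Of 37574 genes 16219 were tested by the authors, and their q-value, called below 0.05, is the test used here. Log2 differences were computed from FPKM with no pseudocount, because the deposited log2 column holds spreadsheet errors. The lowest deposited p-value, 5e-05, is shared by 2004 genes. Median log2 values leave out genes listed at 0 in a fraction. The 15 gene lists hold 118 genes, all matched by symbol or Ensembl ID; 1 further gene is not reported here. Named were all members, list genes that were called or served as examples, genes sharing a locus with a member or with Cbx6, neighbours of members on the genome (picked after their values were seen), and the 3 genes nearest to Bmi1, without symbols of predicted genes, clones or small RNAs. Some Hox cluster genes were also named, picked after their values were seen. The members and lists were chosen with earlier results of these data known. The Benjamini-Hochberg adjustment used in an alternative was tested on simulated data. Promoters are from RefSeq (GRCm38.p6), and no coordinates were converted. Computation used Python 3.11.15 with NumPy 2.4.6, pandas 2.3.3 and SciPy 1.17.1; figures used matplotlib 3.10.9.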

Additional observations from a re-analysis of the deposited data

How the results depend on the processing

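The direction of all 9 members was kept with pseudocounts of 1 and 0.1 FPKM, after centring on the median of all tested genes, and after scaling to equal FPKM sums without small RNA rows. The median log2 over members was then -0.069, -0.075, -0.092 and -0.14. Centring shifted values by -0.016 and equal sums by -0.061 on the log2 scale. At q below 0.01 the called members were 3 instead of 6, with 1 lower, Cbx7, because Rnf2, Cbx2 and Cbx8 lie between the thresholds; 19.4% of all tested genes pass it. A minimum fold of 1.5 removed Rnf2. At q below 0.1, and with the p-values adjusted again over 15286 genes with a mean of at least 1 FPKM, the count was 6. No paired analysis was possible because the table holds 1 value per fraction, and for the same reason no sample could be left out. Depth is unknown, so levels near 1 FPKM, such as Cbx7 in Tomato-positive cells, carry an unknown counting error.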

Other observations

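Hox cluster genes, textbook targets of Polycomb repression, were mostly too low to test. The table has 40 rows for 39 such genes, since Hoxa3 stands in a tested and an untested row. Of these rows 27 were not tested, and 6 of the 13 tested fell, beside 14.2% of all tested genes called lower. By Cuffdiff 0 rose, nor did any at an unadjusted p below 0.05. Their summed level over tested genes was 86.6 FPKM in Tomato-negative cells against 22.9 FPKM in Tomato-positive cells. Most of that sum came from the Hoxc cluster, with Hoxc8 at 25.1 and 8.92 FPKM and Hoxc4 at 22.5 and 3.42 FPKM. Hoxc6 was at 14.8 and 3.54 FPKM and Hoxc5 at 14.3 and 2.34 FPKM. Hoxc13 went the other way, at 0.0168 and 1.46 FPKM, without passing (q = 0.437, from the authors' deposited table).

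Ring1 lies within the major histocompatibility complex. Of 22 tested genes within 150 kb of it, a window chosen after the table was seen, 5 fell and 0 rose by Cuffdiff, beside 14.2% and 13.0% of all tested genes, and 0 were higher at an unadjusted p below 0.05. These 5 were the peptide loading gene Tapbp (62.1 to 26.9 FPKM), H2-K2 (50.8 to 15.8 FPKM), H2-K1 (524 to 275 FPKM), H2-DMa (11.6 to 3.83 FPKM) and H2-DMb1 (12.1 to 4.51 FPKM). Ring1 itself, at 11.5 and 9.88 FPKM, did not pass.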
